A study of Homo sapiens with 8 samples.

Results

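The expression of 10 genes that link methionine salvage, arginine methylation and polyamine synthesis was examined in KRT19-overexpressing cells. They were taken by name from a table of 58735 genes and all were found once. They are MTAP, MAT2A and MAT2B of the methionine cycle, PRMT5, WDR77 and CLNS1A of the PRMT5 methylosome, and ODC1, AMD1, SRM and SMS of polyamine synthesis. RNA-seq counts came from 8 libraries of cells labelled A549, a human lung adenocarcinoma line grown in RPMI-1640 with fetal bovine serum. The EV group was transduced with the lentiviral empty vector and the KRT19 group (KRT19-OVE in the labels) with lentivirus encoding Flag-tagged KRT19, a keratin of epithelial cells, with 4 libraries each. Both were stable lines selected with puromycin. Whether they were pools or clones is not given in the sources used here, nor whether the 4 libraries came from separate cultures, so that p-values measure the spread between these libraries, which may be technical.

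Polyamines are small cations that growing cells make from ornithine and methionine. ODC1 turns ornithine into putrescine, AMD1 decarboxylates S-adenosylmethionine (SAM), and the aminopropyl groups so formed are added by SRM to give spermidine and by SMS to give spermine. Each addition releases methylthioadenosine, which MTAP cleaves so that methionine can be salvaged. MAT2A makes SAM from methionine and MAT2B is its regulatory subunit. PRMT5, with its obligate partner WDR77 and the adaptor CLNS1A (pICln), uses SAM to methylate arginines, among others of the spliceosomal Sm proteins, and is inhibited by methylthioadenosine. Cells that lost MTAP are for this reason known to depend on PRMT5 and MAT2A.

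The label of the cells was checked first, because MTAP bears on it. A549 is known for a homozygous deletion on the short arm of chromosome 9 that removes CDKN2A and, next to it, MTAP. In these libraries MTAP held 653 to 870 counts, CDKN2A 1328 to 1824 and CDKN2B 466 to 659, so MTAP and CDKN2A went against the label in all 8 libraries. Of further genes known to be high in A549, ALDH1A1 (at most 3 counts), ALDH3A1 (at most 4) and AKR1B10 (at most 14) were near 0, AKR1C1 (10 to 22) and AKR1C2 (14 to 47) were low, and NQO1 (6009 to 7518) was well counted. The epithelial genes CDH1 (at most 1 count) and EPCAM (at most 3) were near 0 and KRT7 (34 to 71) was low, whereas KRT8 (2988 to 3857) and KRT18 (4271 to 5746) were abundant. The mesenchymal genes VIM (33316 to 42072) and CDH2 (487 to 593) were counted in every library. The surfactant genes SFTPB, SFTPC and SFTPA1 had 0 counts in every library, which limits them to 0.176 to 0.213 CPM (the level of 3 counts in each library, counting error only), and the lung factor NKX2-1 held 3 to 4 counts. The labels name retina as the extraction source, and the retina genes RCVRN and SAG were at 0 in every library. ARR3 held 5 to 22 counts, and PDE6A held at most 6. Of the genes of other cell types, PTPRC of leukocytes had at most 1 count, PECAM1 of endothelium 8 to 24 and COL1A1 of fibroblasts 21 to 54. AKR1B10, PDE6A and every marker above with at most 4 counts in any library were below the filter on low counts and were not tested between the groups. Of those tested, none passed the adjusted threshold. All 5 tested genes of the list of KRT7, KRT8, KRT18, EPCAM, CDH1, CDH2 and VIM had log2 fold changes below 0, with a median of -0.083 against 0.0051 over all tested genes. For VIM it was -0.093 ± 0.041 (SE, edgeR unadjusted p = 0.0348, adjusted p = 0.906), and the groups did not overlap, where 5.41% of all tested genes had an unadjusted p under 0.05 and 3.44% had no overlap. The libraries are therefore called by their group labels below, and the reason for the mismatch was not tested.

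Depth and the overexpressed gene were as follows. Total counts lay between 14073065 and 17054364 per library and did not separate the groups (exact permutation test, two-sided, p = 0.629). KRT19 held 1 to 5 counts in EV and 4353 to 5147 in KRT19 libraries, so the group labels held for this transcript. The paper reports endogenous KRT19 protein in A549 cells, by co-immunoprecipitation. The 1 to 5 counts in EV libraries were low for cells of that label, and the reason was not tested.

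MTAP (ENSG00000099810) lies on the plus strand of chromosome 9 from 21802543 to 21937651 (GRCh38). Its level was 47.6, 50.2, 41.8 and 45.2 CPM in EV replicates 1 to 4. The 4 KRT19 libraries, in the same order, were at 45.0, 46.4, 50.9 and 47.8 CPM. The groups overlapped, with the lowest value in EV replicate 3 and the highest in KRT19 replicate 3. CPM stands for counts scaled to a common library size with TMM factors. The mean was 46.2 ± 3.58 CPM with the empty vector against 47.5 ± 2.55 CPM with KRT19 (SD, n = 4 per group). KRT19 differed from EV by a log2 fold change of 0.042 ± 0.066 (SE), with a 95% interval from -0.098 to 0.18 and an adjusted p of 0.958 over all genes (edgeR), and it was -0.0031 without EV replicate 3. MTAP ranked at position 4714 of 14621 tested genes by mean CPM, above 67.8% of them.

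To place MTAP in its neighbourhood, the genes of the table that lie at least in part within 1 Mb on either side were listed. The window held 60 genes, of which 24 are protein-coding and 8 of those had at least 10 counts over all libraries. CDKN2A, the cell cycle inhibitor gene that starts 192.8 kb downstream of the MTAP start, was at 103.7 ± 6.42 CPM with the empty vector against 102.1 ± 5.34 CPM with KRT19 (SD, n = 4 per group). Its neighbour CDKN2B, a related inhibitor, was at 36.9 ± 1.35 and 35.1 ± 2.42 CPM. On the other side, KLHL9, an adaptor of a ubiquitin ligase, was at 38.2 ± 2.20 and 37.7 ± 2.82 CPM, and FOCAD at 83.3 ± 4.66 and 79.2 ± 1.79 CPM. Thus the window was transcribed on both sides of MTAP in every library. DMRTA1 was lower, at 7.33 ± 0.607 and 6.53 ± 0.516 CPM. HACD4 (22 counts in total) and IFNE (12 counts in total) were close to the floor. Of the 16 protein-coding interferon genes in the window, IFNE included, 13 had 0 counts in all libraries. None of the 9 tested genes of the window, MTAP included, passed the adjusted threshold.

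**Figure D1:**
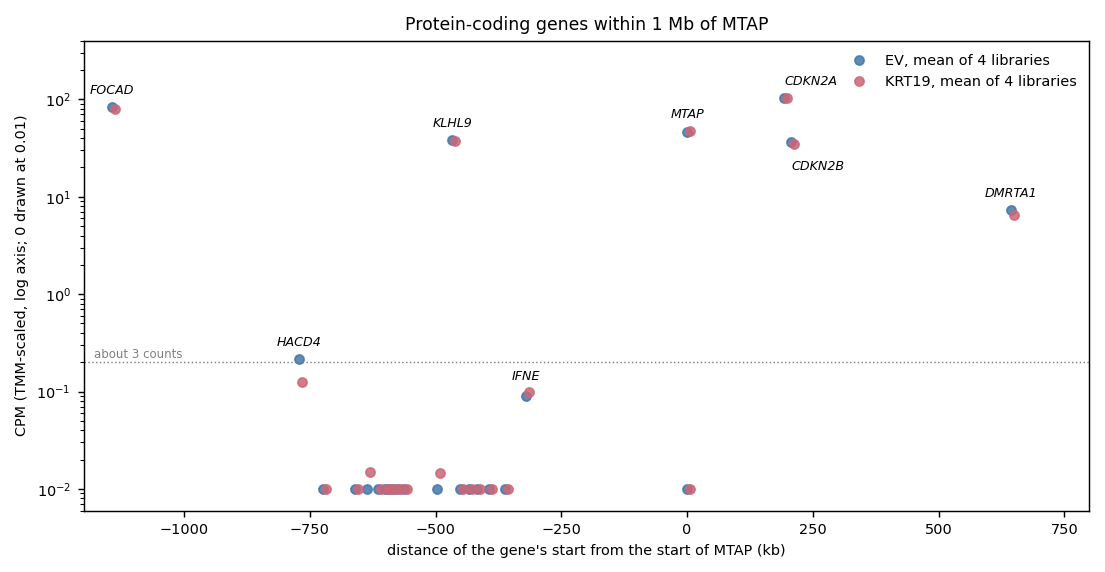
Mean level of the 24 protein-coding genes within 1 Mb of MTAP (CPM, log axis, 0 drawn at 0.01) against the distance of each gene's start from the MTAP start in kb, with blue for the 4 EV and red for the 4 KRT19 libraries (red drawn 6 kb to the right). MTAP, CDKN2A and CDKN2B sit between 35.1 and 103.7 CPM in both groups, and most interferon genes lie at 0.

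The counts are sums per gene and do not show which exons the reads came from. The MTAP gene model of GENCODE 29, whose exons add up to the table's 14617 bases, holds 14 transcripts, and the principal one is 6122 bases long with 8 exons. Of the MTAP exon bases, 9.58% also lie in another gene, and the overlapping read-through gene AL359922.1 had 0 counts in all libraries. This 0 cannot be read as absence of the read-through, since the handling of reads in shared exons is not given in the sources used here.

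The start regions of the genes were then read from RefSeq (GRCh38.p14), which holds a window of 250 bases before to 50 after the start for all 10 genes. Where RefSeq lists several windows (2 for MAT2B, 2 for ODC1 and 3 for AMD1), the one nearest to the gene start of the table was taken. The MAT2B window did not read into a GENCODE 29 transcript of the gene, so its start is uncertain. Windows are shown for MTAP, whose transcription is the point at issue above, for MAT2A and PRMT5, whose need is tied to MTAP, and for SRM, the 1 gene of the 10 with both motifs searched in capitals. The windows are chr9:21802386-21802685 on the plus strand (MTAP), chr2:85538918-85539217 on the plus strand (MAT2A), chr14:22929327-22929626 on the minus strand (PRMT5) and chr1:11059969-11060268 on the minus strand (SRM). Each is written from 5′ to 3′ along its gene, and capitals mark CACGTG (the E-box bound by MYC and MAX among others) and CCAAT or its reverse complement ATTGG.
MTAP: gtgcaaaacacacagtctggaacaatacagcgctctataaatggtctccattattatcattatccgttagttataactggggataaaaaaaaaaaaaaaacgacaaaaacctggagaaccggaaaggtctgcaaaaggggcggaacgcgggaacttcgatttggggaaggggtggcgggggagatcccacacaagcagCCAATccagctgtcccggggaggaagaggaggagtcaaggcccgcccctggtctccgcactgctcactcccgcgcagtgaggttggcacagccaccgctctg
MAT2A: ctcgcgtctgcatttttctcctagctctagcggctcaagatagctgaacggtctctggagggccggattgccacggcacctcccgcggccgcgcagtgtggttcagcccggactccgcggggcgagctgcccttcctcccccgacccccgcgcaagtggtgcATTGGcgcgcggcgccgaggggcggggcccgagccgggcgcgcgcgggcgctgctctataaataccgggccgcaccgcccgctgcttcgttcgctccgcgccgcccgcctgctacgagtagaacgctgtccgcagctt
PRMT5: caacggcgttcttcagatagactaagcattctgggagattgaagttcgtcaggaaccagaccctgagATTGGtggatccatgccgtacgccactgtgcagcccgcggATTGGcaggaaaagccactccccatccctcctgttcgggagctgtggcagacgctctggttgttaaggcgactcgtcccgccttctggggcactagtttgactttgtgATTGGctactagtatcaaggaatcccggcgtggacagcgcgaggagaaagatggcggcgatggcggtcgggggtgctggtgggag
SRM: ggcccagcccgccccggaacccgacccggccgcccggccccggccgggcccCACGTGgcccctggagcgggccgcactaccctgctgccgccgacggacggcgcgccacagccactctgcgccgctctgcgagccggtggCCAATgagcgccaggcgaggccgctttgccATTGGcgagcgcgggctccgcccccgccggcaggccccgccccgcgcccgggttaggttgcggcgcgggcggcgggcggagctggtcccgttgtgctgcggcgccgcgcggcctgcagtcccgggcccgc
The MTAP window held 1 CCAAT, at position -52 from the start. MAT2A held 1 (-88) and PRMT5 held 3 (-183, -143 and -35). SRM held 1 CACGTG, at -199, and 2 CCAAT (-110 and -80). The RefSeq start lies 93 bases inside the gene coordinates of the table for MTAP and 209 bases inside for PRMT5, so the CCAAT matches of these 2 genes lie within those coordinates. Searched on both strands, CACGTG was present in 2 of the 10 windows (SRM and WDR77), against 7.26% of all 35116 windows. CCAAT was present in 5 of 10, against 34.6% of all. The GC-box GGGCGG was present in 8 of 10, against 45.0% of all, with 6 matches each for ODC1 and SRM. The cAMP response element TGACGTCA was in 0 of 10, against 1.85% of all. MAT2B, counted among the 10, held none of these motifs. A match of letters describes the window and no factor was measured.

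Next, MAT2A and MAT2B were compared between the groups. MAT2A (ENSG00000168906, plus strand of chromosome 2, 85539165 to 85545280) was at 229.8, 243.1, 251.8 and 248.5 CPM in EV replicates 1 to 4. With KRT19 it was at 243.8, 245.5, 253.3 and 258.0 CPM. All 4 KRT19 libraries were above the EV mean, yet EV replicates 3 and 4 lay within the KRT19 range. On the log2 scale the difference was 0.040 ± 0.047 (SE), with a 95% interval from -0.059 to 0.14 (edgeR, adjusted p = 0.946), and it was 0.014 without EV replicate 1 and 0.025 without KRT19 replicate 4. MAT2B (ENSG00000038274, plus strand of chromosome 5, 163503114 to 163519336) was at 89.7 ± 5.34 CPM with the empty vector against 90.5 ± 5.09 CPM with KRT19 (SD, n = 4 per group), a log2 fold change of 0.014 ± 0.060 (SE). Its interval ran from -0.11 to 0.14, and the estimate turned to -0.046 with GC and length trends removed. MAT1A, the SAM synthetase of the liver, held 11 to 21 counts per library, so nearly all SAM synthetase counts here belonged to MAT2A.

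The PRMT5 methylosome was then examined. PRMT5 (ENSG00000100462, minus strand of chromosome 14, 22920511 to 22929585) was at 90.9, 95.9, 106.5 and 100.1 CPM in EV replicates 1 to 4. Replicates 1 to 4 of KRT19 were at 106.1, 102.4, 89.0 and 95.8 CPM. The 2 groups spanned nearly the same range, and the means were 98.4 ± 6.62 and 98.3 ± 7.54 CPM (SD, n = 4 per group). The log2 fold change of PRMT5 was -0.0014 ± 0.065 (SE), with a 95% interval from -0.14 to 0.13 (edgeR, adjusted p = 0.998), and its sign turned positive with limma-voom and with GC and length trends removed. WDR77 (ENSG00000116455, minus strand of chromosome 1, 111439890 to 111449376), the partner without which PRMT5 is not stable, was at 41.0, 39.8, 40.2 and 40.4 CPM in EV replicates 1 to 4. The 4 KRT19 libraries, in the same order, were at 44.5, 40.4, 37.4 and 42.7 CPM. The KRT19 libraries thus spread on both sides of a narrow EV range. The log2 fold change of WDR77 was 0.032 ± 0.063 (SE), with an interval from -0.10 to 0.16, and -0.0079 without KRT19 replicate 1. CLNS1A (ENSG00000074201, minus strand of chromosome 11, 77514936 to 77637805) was at 117.4 ± 3.74 CPM with the empty vector against 122.3 ± 3.75 CPM with KRT19 (SD, n = 4 per group). It was above the EV mean in all 4 KRT19 libraries, and its exact permutation p of 0.143 was the smallest of the 10 genes, where 4 libraries against 4 cannot go below 0.0286. Its log2 fold change was 0.059 ± 0.050 (SE), with an interval from -0.046 to 0.16 (edgeR, adjusted p = 0.923), and 0.025 with GC and length trends removed.

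Of the polyamine enzymes, ODC1 (ENSG00000115758, minus strand of chromosome 2, 10439968 to 10448504) was the most counted of the 10 genes and among the top 338 of all tested genes. ODC1 was at 389.4, 398.1, 388.5 and 408.1 CPM in EV replicates 1 to 4. With KRT19 it was at 404.2, 401.4, 392.1 and 406.0 CPM. The KRT19 values lay inside the EV range, and over all 8 libraries ODC1 varied least of the 10 genes, with a coefficient of variation of 1.93%. Its log2 fold change was 0.018 ± 0.043 (SE), with a 95% interval from -0.072 to 0.11 (edgeR, adjusted p = 0.971). Leaving out single libraries moved it between 0.0088 (without EV replicate 3) and 0.032 (without EV replicate 4), and it was 0.0059 with upper-quartile scaling and 0.039 with GC and length trends removed.

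AMD1 (ENSG00000123505, plus strand of chromosome 6, 110874770 to 110895713) had the largest estimate of the 10 genes and varied most, with a coefficient of variation of 8.63%. AMD1 was at 124.5, 123.2, 108.1 and 118.3 CPM in EV replicates 1 to 4. Replicates 1 to 4 of KRT19 were at 113.0, 122.0, 143.9 and 123.9 CPM. KRT19 replicate 3 stood above the other 7 libraries, and the remaining 3 KRT19 values lay within the EV range. The log2 fold change of AMD1 was 0.085 ± 0.069 (SE), with an interval from -0.060 to 0.23 (edgeR, adjusted p = 0.919). It was 0.013 without KRT19 replicate 3, 0.044 without EV replicate 3 and 0.031 with GC and length trends removed.

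SRM (ENSG00000116649, minus strand of chromosome 1, 11054584 to 11060024) was at 128.8, 126.1, 127.0 and 126.5 CPM in EV replicates 1 to 4. The 4 KRT19 libraries, in the same order, were at 148.9, 123.2, 120.1 and 138.7 CPM. KRT19 replicates 1 and 4 were above every EV library, and KRT19 replicates 2 and 3 were below every EV library. The coefficient of variation of SRM was 0.929% in EV and 10.2% in KRT19 libraries, where counting error alone gives 2.19% at its mean count. KRT19 differed from EV by a log2 fold change of 0.063 ± 0.063 (SE), with an interval from -0.070 to 0.20 (edgeR, adjusted p = 0.930), and it was 0.0023 without KRT19 replicate 1 and 0.11 without KRT19 replicate 3. SMS (ENSG00000102172, plus strand of chromosome X, 21940573 to 21994835) was at 266.6 ± 9.09 CPM with the empty vector against 263.3 ± 10.9 CPM with KRT19 (SD, n = 4 per group). The log2 fold change of SMS was -0.017 ± 0.048 (SE), with an interval from -0.12 to 0.083, and 0.00033 without EV replicate 2.

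**Figure D2:**
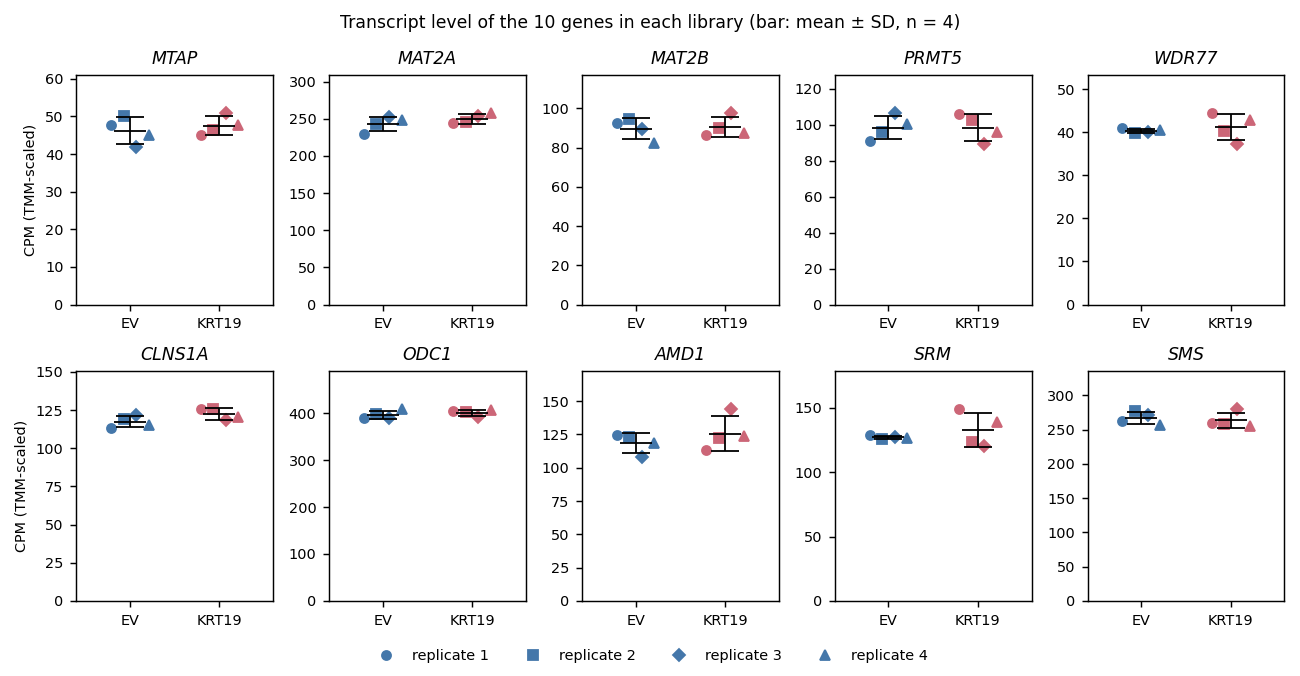
Level of each of the 10 genes in the 4 EV (blue) and 4 KRT19 (red) libraries in CPM, with a marker shape per replicate number and black bars for the mean ± SD. The groups overlap for every gene. KRT19 replicate 3 is the highest point for AMD1 (143.9 CPM) and the lowest for SRM (120.1 CPM).

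All 10 genes passed the filter on low counts, and none passed the adjusted threshold of 0.05 (edgeR, Benjamini-Hochberg over 14621 genes), where 0.00684% of all tested genes did so (KRT19 alone). At an unadjusted p under 0.05 there were 0 of 10 genes, against 5.41% of all tested genes, and the smallest unadjusted p was 0.233, for AMD1. The count at an unadjusted p under 0.05 was also 0 with DESeq2, with limma-voom and under the other alternatives. The groups were free of overlap for 0 of 10 genes, against 3.44% of all tested genes. Of the 10 estimates, 8 were above 0 and 2 below, with a median of 0.036 on the log2 scale, against a median of 0.0051 over all tested genes, 52.2% of which were above 0. The 95% intervals of the 10 genes together spanned -0.14 to 0.23 on the log2 scale, a change between -9.09% and 17.4%. Each gene's own interval, given above, is narrower than this span, and a missed threshold does not show equal levels.

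**Figure D3:**
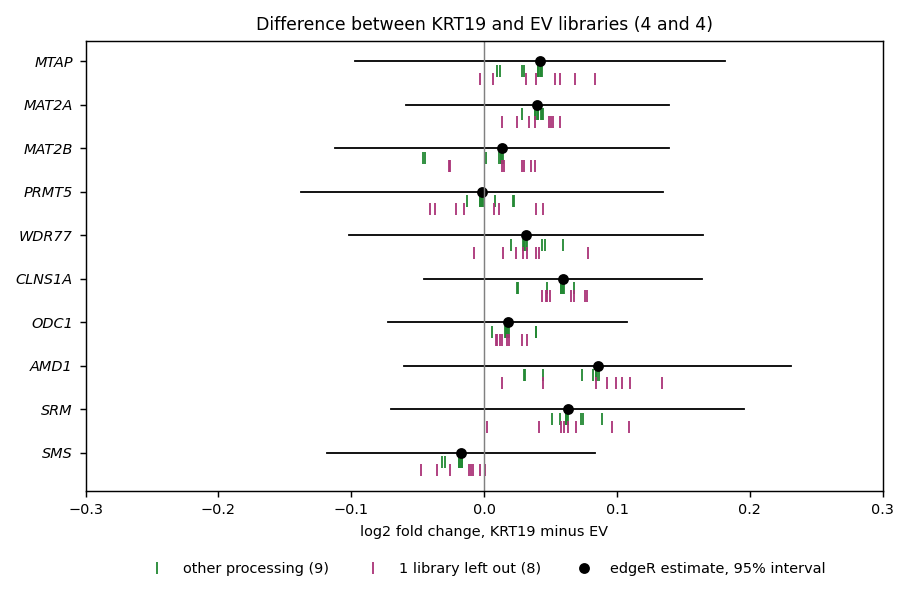
Log2 fold change (KRT19 minus EV) of each gene from edgeR with its 95% interval (black), under 9 other ways of processing (green ticks) and with each of the 8 libraries left out (purple ticks). Every interval crosses 0, and all ticks lie between -0.047 and 0.13.

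The 10 genes were ordered among themselves by level per length, as CPM per kb of the principal transcript (mean ± SD over 8 libraries). ODC1 (150.2 ± 2.90) and SMS (144.2 ± 5.15) led, and their ranges overlapped, with ODC1 above SMS in 5 of 8 libraries. SRM (102.6 ± 7.40) and MAT2A (87.5 ± 3.03) followed, each apart from its neighbours in all 8 libraries. MAT2B (42.8 ± 2.31), CLNS1A (40.0 ± 1.46), PRMT5 (38.9 ± 2.60) and AMD1 (35.5 ± 3.06) formed a run whose neighbouring ranges overlapped. WDR77 (15.8 ± 0.816) and MTAP (7.66 ± 0.484) were lowest and apart in all 8 libraries. With the gene length of the table in place of the principal transcript, the first 4 and the last 2 places were held by the same genes. MAT2B then lay below CLNS1A in all 8 libraries, and MTAP, with its long gene model, was at 3.21 ± 0.203 CPM per kb. The position of a gene in this order therefore depends on the transcript taken.

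**Figure D4:**
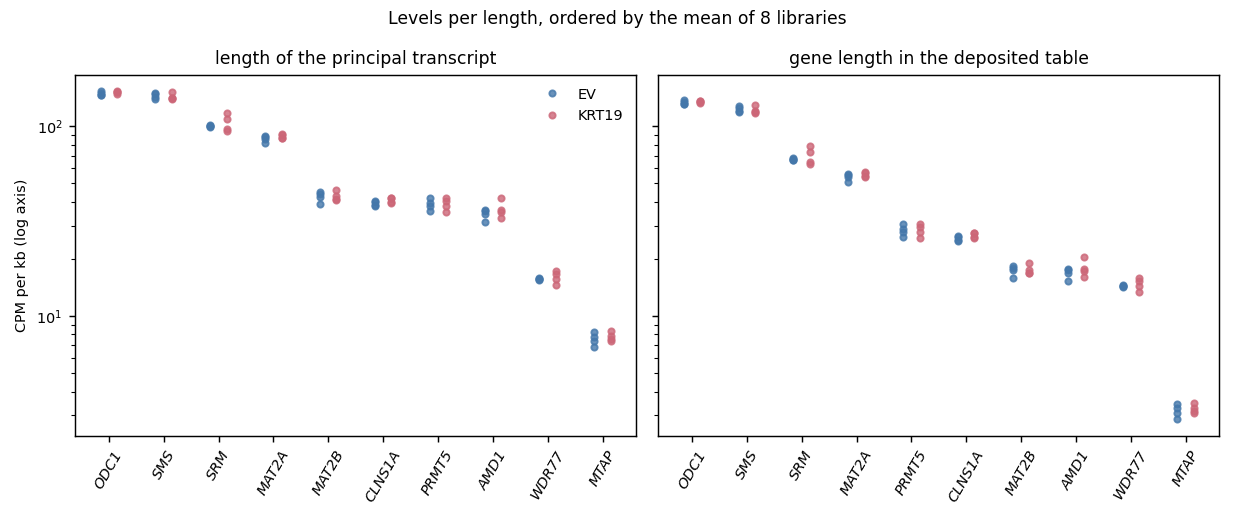
CPM per kb (log axis) of the 10 genes in each EV (blue) and KRT19 (red) library, divided by the principal transcript (left) or by the gene length of the table (right) and ordered by the mean of 8 libraries. ODC1 and SMS lead and MTAP is last on both scales.

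Partners were also set against each other within each library, as ratios of CPM per kb of the principal transcript. The ratio of MAT2A to its regulatory subunit MAT2B was 2.03 ± 0.181 with the empty vector against 2.07 ± 0.113 with KRT19 (SD, n = 4 per group). PRMT5 exceeded WDR77 by a ratio of 2.48 ± 0.183 and 2.43 ± 0.122, and was close to CLNS1A, at 0.991 ± 0.0481 and 0.950 ± 0.0457. The ratio of SMS to SRM was 1.45 ± 0.0561 with the empty vector against 1.38 ± 0.181 with KRT19. In each pair the group means differed by less than 1 SD of the KRT19 libraries, and for SMS to SRM by more than 1 SD of the EV libraries. These ratios are descriptions, and their size shifts with the transcript taken, for example from 2.03 to 3.13 for MAT2A to MAT2B in EV libraries with the table's gene lengths.

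KRT19 replicate 3 moved the 10 genes in different directions. Relative to the mean of the other KRT19 libraries it was higher by 0.27 (AMD1), 0.15 (MAT2B), 0.13 (MTAP) and 0.12 (SMS) on the log2 CPM scale. It was lower for PRMT5 (-0.19), WDR77 (-0.19) and SRM (-0.18). The longest transcripts of AMD1, MAT2B and MTAP have a GC content of 37.7%, 36.4% and 39.1%, and that of SRM has 63.7%. CLNS1A, at 40.3%, was lower (-0.066), whereas SMS, at 46.5%, was higher. WDR77 has 48.6% and PRMT5 51.9%, so the direction did not follow GC content for every gene. With GC and length trends removed per library, the difference was 0.049 for AMD1, -0.027 for MTAP and -0.11 for MAT2B. It was -0.11 for SRM, -0.14 for PRMT5, -0.18 for WDR77 and 0.085 for SMS. The differences of AMD1 and MTAP were thus smaller with the trends removed, that of CLNS1A was larger (-0.066 before and -0.22 after) and that of WDR77 was nearly the same. Those of MTAP and MAT2B changed sign (MAT2B from 0.15 to -0.11). The part of base composition in the results above was not tested further.

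**Figure D5:**
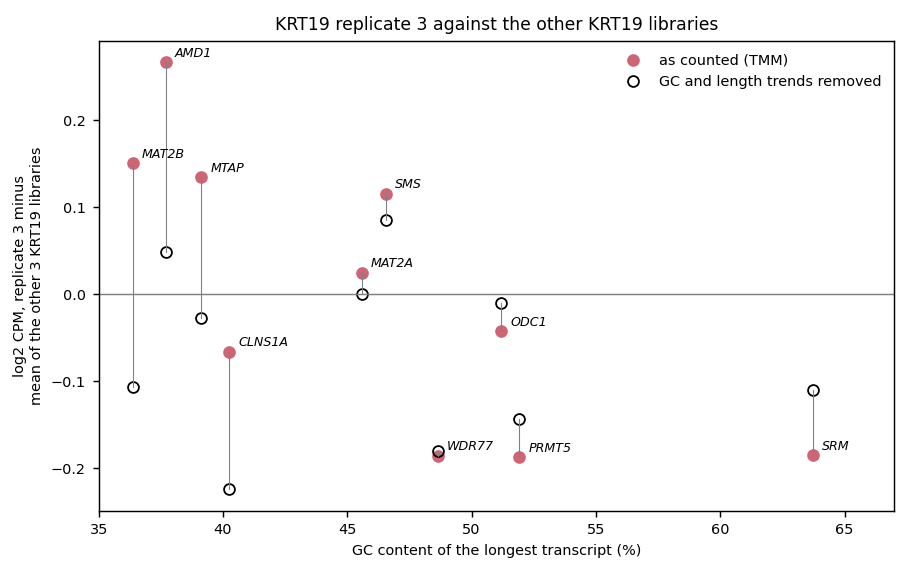
Difference in log2 CPM between KRT19 replicate 3 and the mean of the other 3 KRT19 libraries for each gene against the GC content of its longest transcript (%), as counted (red) and with GC and length trends removed (open). The GC-poor AMD1 goes from 0.27 to 0.049, and WDR77 from -0.19 to -0.18.

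The wider pathways were then counted in the same fit. Of 18 further genes of the methionine cycle and salvage, 14 were tested, 0 passed the adjusted threshold and 1 reached an unadjusted p under 0.05, where 5.41% of all tested genes did so. The median log2 fold change was -0.0014, against 0.0051 over all tested genes. The 1 gene was MTRR, which keeps methionine synthase active, at 22.01 ± 1.52 CPM with the empty vector against 18.8 ± 1.16 CPM with KRT19 (SD, n = 4 per group). The log2 fold change of MTRR was -0.23 ± 0.077 (SE), the groups did not overlap (as for 3.44% of all tested genes), and its adjusted p was 0.889 (edgeR). AHCY, which clears the SAM product S-adenosylhomocysteine, was abundant at 543.9 ± 23.2 and 541.8 ± 42.4 CPM. The salvage enzymes downstream of MTAP were all counted. MRI1 was at 37.8 ± 1.32 CPM with the empty vector against 35.9 ± 1.12 CPM with KRT19, and APIP at 36.5 ± 2.84 and 37.1 ± 2.43 CPM. ENOPH1 was at 69.5 ± 3.63 and 74.7 ± 2.34 CPM, and ADI1 at 67.8 ± 1.00 and 70.7 ± 2.48 CPM. MTR, the methionine synthase, was at 55.3 ± 2.77 and 57.0 ± 4.81 CPM.

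Of 22 arginine methyltransferases, PRMT5 adaptors and Sm assembly genes, 21 were tested and 0 reached an unadjusted p under 0.05, against 5.41% of all tested genes. Their median log2 fold change was 0.017, against 0.0051 over all. RIOK1, an adaptor that competes with CLNS1A for PRMT5, was at 34.1 ± 1.45 CPM with the empty vector against 37.4 ± 3.96 CPM with KRT19, a log2 fold change of 0.13 ± 0.074 (SE, edgeR adjusted p = 0.906). COPRS, the adaptor for histones, was at 44.6 ± 1.54 and 43.6 ± 3.05 CPM. The type I enzymes PRMT1 (285.6 ± 21.7 and 288.7 ± 34.5 CPM) and CARM1 (155.7 ± 5.07 and 157.6 ± 12.5 CPM) had more counts than PRMT5. The Sm proteins methylated by PRMT5 had log2 fold changes of -0.010 ± 0.050 (SNRPB), 0.061 ± 0.062 (SNRPD1) and 0.091 ± 0.055 (SNRPD3) (SE).

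Of 21 further polyamine genes, 19 were tested and 0 reached an unadjusted p under 0.05, against 5.41% of all tested genes. Of their estimates 9 were above and 10 below 0, where 52.2% of all tested genes were above, and their median was -0.0033, against 0.0051 over all. OAZ1, the antizyme that directs ODC1 to the proteasome, was at 501.4 ± 10.8 CPM with the empty vector against 477.8 ± 36.1 CPM with KRT19. Its relative OAZ2 was at 108.2 ± 6.52 and 101.5 ± 7.47 CPM, and AZIN1, which binds antizymes, at 240.0 ± 13.3 and 234.3 ± 12.0 CPM. The catabolic SAT1, an acetyltransferase, was at 39.1 ± 2.50 and 36.5 ± 1.81 CPM, and SMOX, the spermine oxidase, at 25.9 ± 2.79 and 24.8 ± 1.16 CPM. EIF5A, which carries the hypusine made from spermidine, was at 860.5 ± 51.4 and 896.5 ± 42.9 CPM, and DOHH, the second enzyme of hypusine formation, at 34.9 ± 1.26 and 35.02 ± 2.35 CPM. DHPS, the first, held only 10 to 33 counts per library. In GENCODE 29, 92.0% of the bases of its principal transcript also lie in WDR83 or AC010422.8, so its low count cannot be read as a low level.

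Other overlaps limit the levels above. Of the exon bases of WDR77, 36.5% also lie in another gene (ATP5PB or AL390195.1), of PRMT5 27.1% (PRMT5-AS1) and of MAT2A 12.4% (GGCX). For the principal transcripts, used for the levels per length and the ratios, these shares were larger. They were 38.6% for WDR77, 36.0% for PRMT5 and 19.8% for MAT2A. The share was 34.5% for MRI1. For SMS, 11.7% of 75-base words of its transcripts also occur in another gene. MAT2B, CLNS1A, ODC1, AMD1 and SRM share no exon base with another gene. The handling of overlaps and strand is not given in the sources used here, and the library kit named in the labels does not mark strand.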

How the data were processed

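RNA was measured in 4 EV and 4 KRT19 libraries, grouped by the sample titles. The authors deposited raw read counts per gene, not normalized, in 1 table. The submitters' processing notes list Bowtie 0.12.2, featureCounts 1.5.0-p3, DESeq2 and the build hg38 without their roles. Gene lengths and coordinates are those of the table, and overlaps, transcripts and GC content came from GENCODE 29.

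Counts were analysed with edgeR 4.0.16 and limma 3.58.1 in R 4.3.3. After filterByExpr, 14621 genes remained. TMM scaling, glmQLFit and glmQLFTest compared KRT19 with EV over all 8 libraries, two-sided, with Benjamini-Hochberg adjustment over all genes at 0.05. SE is the log2 fold change over the square root of F, and intervals use its t quantile at 95%. Log2 CPM used a prior count of 2. Single genes were also compared by exact permutation of library labels. The procedure was tested on simulated data.

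The genes and lists were chosen with earlier results of these data known. The genes named are the 10, protein-coding genes within 1 Mb of MTAP with at least 10 counts, listed pathway genes by role, up to 3 further per list with the smallest unadjusted p under 0.05, and the nearest patterns in the closing section. Overlapping genes and CBS were named after their values were seen.

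Alternatives were scaling by DESeq2 size factors or the upper quartile, testing by DESeq2 1.42.0 (Wald) or by limma-voom weighted for library quality, keeping genes with at least 1 count or only those at 5 CPM in 4 libraries, blocking on the replicate number, removing GC and length trends (natural splines, 5 df) without and with that block, and dropping each library in turn.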

Additional observations from a re-analysis of the deposited data

How the results depend on the processing

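Across 17 alternatives, 0 of the 10 genes passed the adjusted threshold or reached an unadjusted p under 0.05. The smallest unadjusted p was 0.0618 (SRM) and the smallest adjusted p 0.617. Of 170 values of the 10 genes, 156 kept their direction and 14 reversed. MAT2A, CLNS1A, ODC1, AMD1 and SRM did not reverse under any of them. PRMT5 turned to 0.0083 with limma-voom, 0.022 with GC and length trends removed and 0.022 with these and the replicate block. MAT2B turned to -0.046 and -0.045 with the trends removed, without and with the block. With single libraries dropped, the leave-one-out values were -0.041 to 0.044 for PRMT5, -0.026 to 0.038 for MAT2B, -0.0031 to 0.083 for MTAP, -0.0079 to 0.078 for WDR77 and -0.047 to 0.00033 for SMS. The reversals came without EV replicate 3 (MTAP, PRMT5), EV replicate 4 or KRT19 replicate 3 (MAT2B, PRMT5), KRT19 replicate 4 (PRMT5), KRT19 replicate 1 (WDR77) and EV replicate 2 (SMS). The cause was not tested.

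Over all genes, 1 gene passed the adjusted threshold. The DESeq2 Wald test gave 3, limma-voom 8, keeping genes with at least 1 count 71, and there were 5 with the trends removed, 8 with these and the replicate block, and 1 to 5 when leaving out one library (5 without KRT19 replicate 3, 3 without EV replicate 1). Unadjusted p-values fell under 0.05 for 791 genes. Limma-voom gave 1337, keeping genes with at least 1 count 1559, and there were 1204 with the trends removed, 451 with the replicate block, and 620 to 1228 when leaving out one library (1228 without KRT19 replicate 1). Same-numbered libraries had residual correlations from -0.159 to 0.0567, with GC and length trends not removed. These values showed no pairing by number but cannot exclude it, and the block changed no call of the 10 genes. The cause was not tested.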

Other observations

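The genes with the nearest pattern over the 8 libraries were sought by the root mean square difference of centred log2 CPM, among genes at 10 CPM or more that vary at least as much. For MTAP these were VAMP7 (0.029), AGPS (0.032) and DCP1A (0.032), out of 5043 genes compared. For PRMT5 they were KAT8 (0.018), UBE2D4 (0.020) and MAF1 (0.021), out of 4576 genes. For MAT2A they were ATRIP (0.025), RABL6 (0.028) and RPL3P4 (0.028), out of 8820 genes, the last a ribosomal protein pseudogene, whose counts are uncertain. The points share libraries, depth and base composition trends.

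In 20 groups of 4 libraries (10 genes in 2 groups), no library stood apart from the rest by Dixon's criterion at 95%.

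CBS, the first enzyme of transsulfuration, ranged from 170 to 422 counts, and 52.3% of the 75-base words of its transcripts also occur in its copy CBSL, so its counts are uncertain.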
